A study of Mus musculus with 311 samples.

Results

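Cd2, Cd3g and Cd3e code for surface proteins of T lymphocytes, and their transcripts were followed across the livers of 311 mice. They are 3 of the 11387 genes that were measured on at least 95% of the arrays. All probes naming these genes were taken, and each gene had 1 probe, so 3 of 23388 probes were used. Every statement about a gene therefore rests on 1 probe, and agreement between probes of the same gene could not be examined for any of them. That holds for Cd3e too: its opposition to the other T cell genes, described further on, rests on 1 probe.

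CD3 gamma, delta and epsilon are the signalling chains that carry the T cell receptor to the cell surface, where each receptor holds a gamma-epsilon and a delta-epsilon pair. CD2 is an adhesion and costimulation receptor of lymphocytes, among them T cells and natural killer (NK) cells, and in the mouse it binds CD48 on other cells. In the liver these genes are known from resident and recruited lymphocytes, and hepatocytes, the main cell of the organ, are not a known source.

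The animals were F2 mice bred from C57BL/6J and C3H/HeJ, a pair of inbred strains. Both strains carried an ApoE null background, so no animal had the apolipoprotein E that clears remnant lipoproteins, and this was shared by all groups described here. Females and males ate a Western, high-fat diet between week 8 and week 24 of life. Each array compared liver RNA of 1 animal (Cy3) with a pool made of equal portions of all RNA samples (Cy5), and all 311 arrays form 1 group because no sex, allele or phenotype was used per animal. As the rule for these genes asks, arrays were also described on either side of a log10 ratio of -0.5 for a probe of Eif2s3y, a gene on the Y chromosome. This gave 155 Eif2s3y-high and 156 Eif2s3y-low arrays, separated by a gap from -0.875 to -0.219.

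The deposited values were read as log10 ratios of animal over pool, a base and sign taken from the data. They give no absolute level, so it could not be checked that T cell transcripts were present in a given liver, only that they varied between livers. Bulk tissue does not separate the number of T cells from the RNA per T cell, so fewer cells and less RNA per cell cannot be told apart. Array SDs ran from 0.0658 to 0.206 and 1 to 2889 values were missing per array. An array yields no counts. Precision is limited by how many arrays there are and by the signal of each probe, which the ratios do not show. Of 48205 pairs of arrays, 124 had a Pearson r under -0.3 over all probes. No array was turned, since the labels give the same dyes for every animal and for the pool, and a correlation between genes does not depend on the sign shared by all arrays.

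Cd3g, Cd3d and Cd3e lie next to each other on chromosome 9, while Cd2 lies on chromosome 3. The promoters of the 3 neighbours are shown because 2 of these genes varied together across livers and the third did not. Each window runs from 250 bases before to 50 bases after the RefSeq gene start in GRCm38.p6, read 5′ to 3′ on the gene's strand. The windows are chr9:44980382-44980681 (minus) for Cd3g, chr9:44981536-44981835 (plus) for Cd3d and chr9:45009562-45009861 (minus) for Cd3e. Capitals mark CACCTG, an E box of the kind bound by E proteins, and AGGAAGT, a core bound by ETS factors, on either strand.
Cd3g: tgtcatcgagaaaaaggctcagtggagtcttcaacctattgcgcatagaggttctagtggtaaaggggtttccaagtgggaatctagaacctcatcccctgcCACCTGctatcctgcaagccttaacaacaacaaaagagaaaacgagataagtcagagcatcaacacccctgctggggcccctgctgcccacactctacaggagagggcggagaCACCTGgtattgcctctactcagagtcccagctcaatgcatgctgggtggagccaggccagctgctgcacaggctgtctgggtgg
Cd3d: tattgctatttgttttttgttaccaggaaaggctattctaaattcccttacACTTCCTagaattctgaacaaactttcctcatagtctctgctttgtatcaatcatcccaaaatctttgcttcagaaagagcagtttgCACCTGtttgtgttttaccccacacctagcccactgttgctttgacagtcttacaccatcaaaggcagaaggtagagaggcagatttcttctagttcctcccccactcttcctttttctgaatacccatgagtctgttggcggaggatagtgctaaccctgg
Cd3e: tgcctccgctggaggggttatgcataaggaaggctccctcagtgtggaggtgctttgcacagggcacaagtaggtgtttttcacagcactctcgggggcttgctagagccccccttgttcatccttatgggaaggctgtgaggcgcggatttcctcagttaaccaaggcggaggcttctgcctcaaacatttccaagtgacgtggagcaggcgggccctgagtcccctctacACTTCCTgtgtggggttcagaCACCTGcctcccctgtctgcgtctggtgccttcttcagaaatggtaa
CACCTG was found at 2 places in the Cd3g window and at 1 place in each of the other two, and 20.2% of 32851 promoter windows of this length hold it. AGGAAGT was found once in the Cd3d window, once in the Cd3e window and not in the Cd3g window, against 9.35% of all windows. CTTTGA, a TCF/LEF core held by 16.0% of windows, occurred at 2 places in Cd3d, and AGATAA, the core of the GATA family and held by 11.2%, at 1 place in Cd3g. The RUNX core TGTGGT, held by 16.8% of windows, was in none of these 3, and neither was TATAAA, searched for the TATA box and held by 13.6%. These are matches of letters and not measured sites.

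Cd2 and Cd3g varied widely between livers and Cd3e little. The log10 ratio of Cd2 was lowest at -0.395, had a median of 8.05e-05 and was highest at 0.654 over 311 arrays. The log10 ratio of Cd3g ran from -0.499 through a median of -0.0528 to 0.467 over 306 arrays. The log10 ratio of Cd3e ran only from -0.145 through 0.00117 to 0.172 over 310 arrays. Between the 5th and the 95th percentile Cd2 spanned 2.82-fold, Cd3g 3.77-fold and Cd3e 1.39-fold. In units of the median SD of all genes (0.0667 on the log10 scale), the SD was 2.09 for Cd2, 2.54 for Cd3g and 0.684 for Cd3e. A smaller SD than that of Cd2 was seen in 90.1% of genes, than that of Cd3g in 94.1% and than that of Cd3e in 17.0%. Cd3d, the delta chain and no member of the trio, had 1.55 times the median SD. No probe met the rule for separate clusters. It asked that 2 normal components improve the BIC by 10 over a normal or a Student t distribution, that the smaller component weigh 0.1 or more, and that their separation (Ashman D) reach 2. Cd3g had a margin of 4.39, a weight of 0.0699 and a D of 3.56, and Cd3e a margin of 11.1 with a D of 1.02.

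The same liver was lowest for Cd2 and for Cd3g. Its log10 ratios were -0.395 for Cd2, -0.499 for Cd3g and -0.264 for Cd3d, while its Cd3e ratio was 0.122, on the high side. The liver highest for Cd2, at 0.654, had 0.360 for Cd3g and -0.0381 for Cd3e. The liver highest for Cd3e, at 0.172, had 0.0162 for Cd2 and -0.0522 for Cd3g.

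Levels differed between the Eif2s3y-high and Eif2s3y-low arrays, with wide overlap. The median log10 ratio of Cd2 was -0.0712 on the Eif2s3y-high and 0.0462 on the Eif2s3y-low arrays, and 123 of 155 Eif2s3y-high arrays lay below the Eif2s3y-low median. Cd3g had medians of -0.111 and 0.0121, and 114 of 152 Eif2s3y-high arrays lay below. Cd3e went the other way, with medians of 0.0170 and -0.0109, and 117 of 155 Eif2s3y-high arrays lay above. In a limma fit over all probes with Benjamini-Hochberg adjustment, the mean of Cd2 was 1.26-fold higher on the Eif2s3y-low arrays (adjusted p = 1.98e-10) and that of Cd3g 1.30-fold higher (adjusted p = 4.84e-09). Cd3e was 1.06-fold higher on the Eif2s3y-high arrays (limma adjusted p = 1.32e-06). The log10 differences, Eif2s3y-high minus Eif2s3y-low, were -0.101 ± 0.0147 (SE), -0.115 ± 0.0182 and 0.0260 ± 0.00499 in that order. Many probes differ between these arrays: 25.9% of all probes were higher and 28.2% lower on the Eif2s3y-high arrays, and Cd2, the foremost of the trio, ranked 3807 of 22862 by adjusted p. Many genes of other cells were lower there too. On the Eif2s3y-high arrays 22 of 25 macrophage and Kupffer cell genes, 14 of 18 of the interferon gamma response and 6 of 9 of MHC class II were lower. So were 13 of 22 cytotoxic T and NK cell genes, and 0 genes of these lists were higher. Of 5 T cell receptor complex genes 4 were lower and 0 higher, and of 14 T cell transcription factors 9 and 0. Some other lists had genes on both sides. Of 15 B cell genes 7 were lower and 3 higher, of 13 T cell attracting chemokines 7 and 4, and of 7 plasma cell genes 2 and 3. Of 26 T cell receptor signalling genes 17 were lower and 3 higher, of 8 hepatocyte genes 3 and 4, and of 11 stellate cell and matrix genes 1 and 5. The part of other cells in the differences of Cd2 and Cd3g was not tested.

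**Figure D1:**
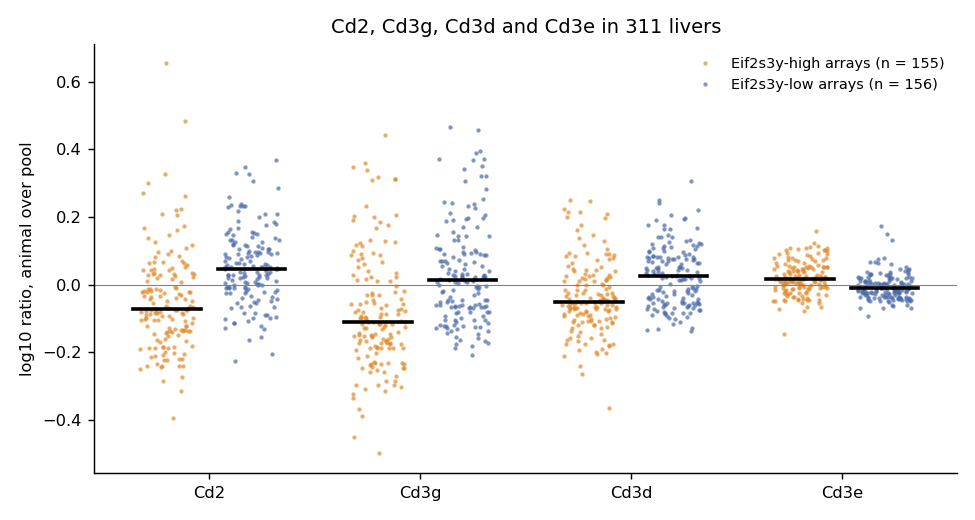
Log10 ratio of animal over pool (vertical axis) for Cd2, Cd3g, Cd3d and Cd3e, 1 point per array, split into 155 Eif2s3y-high and 156 Eif2s3y-low arrays, with a black line at each median. Cd2, Cd3g and Cd3d sit lower on the Eif2s3y-high arrays (Cd2 medians -0.0712 and 0.0462), Cd3e slightly higher (0.0170 and -0.0109) and in a much narrower band.

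Cd2 and Cd3g rose and fell together. Pearson r was 0.796 (95% interval 0.751 to 0.834, n = 306) and Spearman rho 0.788, with a two-sided permutation p of 1e-05, the smallest that the resamples can give, adjusted to 3e-05 over the 3 pairs. Leaving out the 2 animals most distant from the Cd2 median gave an r of 0.796. It was 0.807 on the Eif2s3y-high and 0.713 on the Eif2s3y-low arrays. Only 3 of 11386 genes had a higher r with Cd2 than Cd3g had.

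Cd3e ran weakly against both. With Cd2 its r was -0.225 (95% interval -0.328 to -0.116, n = 310) and its rho -0.247 (permutation adjusted p = 0.000165 for r). With Cd3g its r was -0.127 and its rho -0.158 (permutation adjusted p = 0.0257 for r, n = 305). Without the 2 farthest animals these were -0.238 and -0.142. Cd2 shared 63.4% of variance with Cd3g and 5.06% with Cd3e. The genes were chosen with these relations known, so the p-values set the size against the error and are no independent support.

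The opposition of Cd3e did not keep its sign. On the Eif2s3y-high arrays r with Cd2 was -0.221 (permutation adjusted p = 0.0107) and on the Eif2s3y-low arrays 0.00812 (adjusted p = 0.919). With Cd3g, r was -0.0959 (permutation adjusted p = 0.356) and 0.0525 (adjusted p = 0.624). The difference itself did not pass in the limma interaction fit, neither for Cd3e on Cd2 (adjusted p = 0.395) nor for Cd3e on Cd3g (adjusted p = 0.729). After 5 principal components of the whole table were removed, r of Cd3e became 0.195 with Cd2 (permutation adjusted p = 0.00069) and 0.257 with Cd3g (adjusted p = 4.5e-05), the opposite sign. Cd2 and Cd3g kept an r of 0.749 there. Cd3e also moved with the spread of the array: its r with the SD over all probes of an array was 0.223 (rho 0.234, permutation adjusted p = 0.00099), whereas that of Cd2 was 0.00913 and that of Cd3g -0.0345. With each array centred on its median and divided by its SD, r of Cd3e was -0.223 with Cd2 and -0.123 with Cd3g, both still past the threshold. Without the 10 arrays of largest SD these were -0.210 and -0.114, the latter no longer past it.

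**Figure D2:**
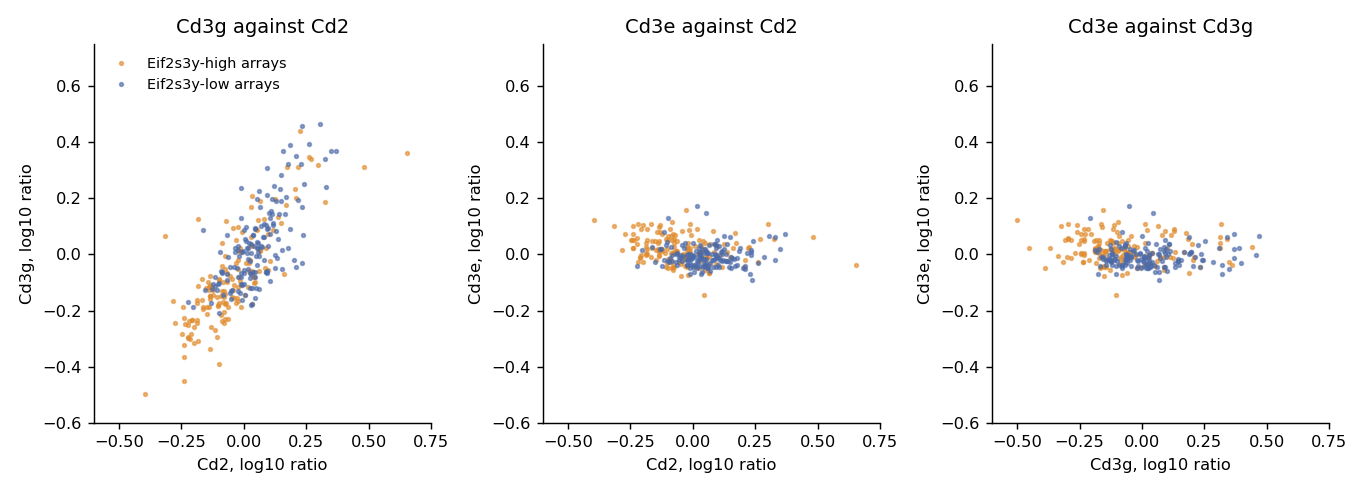
Log10 ratios of Cd3g against Cd2, Cd3e against Cd2 and Cd3e against Cd3g, 1 point per array, coloured by Eif2s3y-high and Eif2s3y-low arrays, on the same scale for all axes. Cd2 and Cd3g form a rising band (r = 0.796), while Cd3e stays in a flat band with r of -0.225 and -0.127.

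**Figure D3:**
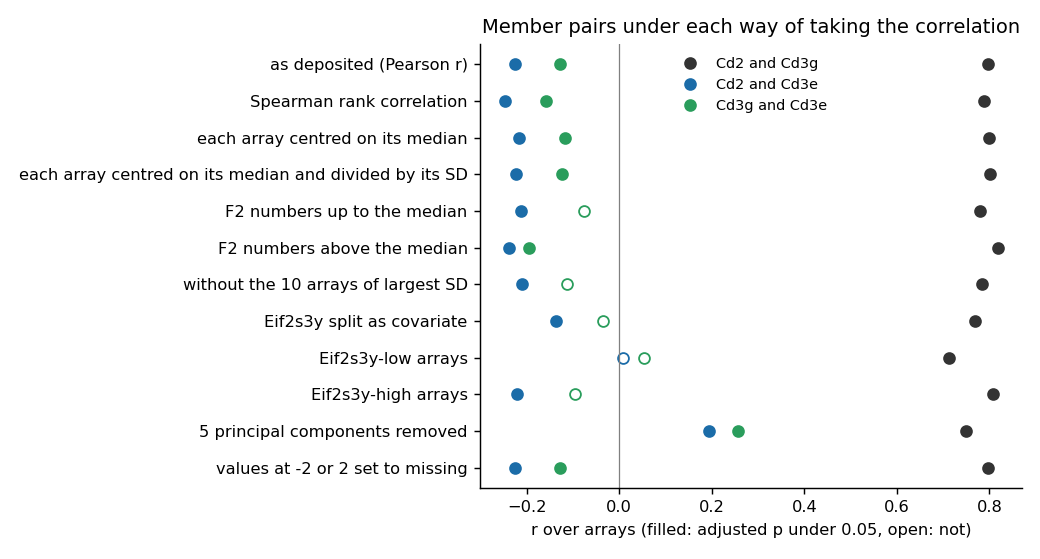
Correlation of the 3 pairs (horizontal axis) under each way of taking it (vertical axis), with filled points where the adjusted permutation p was under 0.05. Cd2 with Cd3g lies between 0.713 and 0.818 throughout. The pairs with Cd3e lie near 0 with open points on the Eif2s3y-low arrays (0.00812 and 0.0525). They turn positive after removal of 5 principal components (0.195 and 0.257).

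Proximity on the chromosome did not go with likeness for Cd3e. Cd3d had an r of 0.834 with its neighbour Cd3g, the fourth highest of 11386 genes, but -0.145 with its other neighbour Cd3e. The nearest measured genes on the far side of Cd3e were Mpzl2, with an r of 0.0506, and Mpzl3, with 0.172. Of the 6 measured genes around Cd2, r ran from -0.138 (Casq2) to 0.221 (Trim45). Of the 50 genes nearest to each member, 2 lay on chromosome 3 for Cd2 (4.64% of all genes lie there), and 4 for Cd3g and 3 for Cd3e on chromosome 9 (5.31%).

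The genes most like Cd2 were mostly genes of leukocytes. Ptprcap, which codes for a protein bound to the phosphatase CD45, had an r of 0.921, and Tbc1d10c, a regulator of Ras and calcineurin signalling in lymphocytes, 0.882. Trav9d-3, a variable segment of the T cell receptor alpha chain, followed with 0.831, then Cd3g, Tnfrsf18 (0.796, the costimulatory receptor GITR), Il2rb (0.780, a chain of the receptors for interleukins 2 and 15) and Stat4 (0.775, a transcription factor activated by interleukin 12). Ccl5, Ptpn22, Fasl, Cxcr3 and Ptpn18 completed the 12 highest, down to 0.754. The most negative genes were Sdr9c7 (-0.497) and Serpina3f (-0.493).

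The genes most like Cd3g were largely the same. Trav9d-3 had an r of 0.854, Fasl, the death ligand of cytotoxic lymphocytes, 0.848, Ccl5, a chemokine made by activated T and NK cells, 0.835, and Eomes, a transcription factor of CD8 T and NK cells, 0.807. Gimap7, Cxcr6, Il2rb, Sh2d2a and Gfi1 lay between 0.737 and 0.765. Of the 50 genes nearest to Cd2 and the 50 nearest to Cd3g, 32 were shared (64% of each). Neither shared any with the 50 nearest to Cd3e. In the 5 T cell lists described below were 14 of the 50 for Cd2, 17 for Cd3g and 0 for Cd3e.

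The genes most like Cd3e were of other kinds. The highest r was that of Tyro3 (0.761), a receptor tyrosine kinase of the TAM family, followed by Lrcol1 (0.754), Msx2 (0.746) and Myf5 (0.734), the last 2 being developmental transcription factors of bone and muscle. Genes of the hepatocyte came next: Serpina11 (0.719), Slc22a7 (0.702, an organic anion transporter), Serpina1d (0.701, an alpha-1 antitrypsin) and Tfr2 (0.691, an iron-sensing transferrin receptor). Lct (0.679), Pdia5 (0.667), Gtpbp3 (0.664) and Sox11 (0.656) completed the 12 highest. The most negative were Cd36 (-0.706), a fatty acid transporter, GPR177 (-0.686) and Ehhadh (-0.648), an enzyme of peroxisomal fatty acid oxidation. On the Eif2s3y-low arrays alone the plasma protein genes Itih1 (0.760), Itih3 (0.753), Serpina3n (0.735) and F7 (0.725) were among the 6 highest. An r of -0.5 or lower was reached by 128 genes with Cd3e and by 0 genes with Cd2 or Cd3g. The 1 probe of Cd3e had only 0.684 times the median SD, and its r with the SD of an array was 0.223. What these genes share with Cd3e was not tested.

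**Figure D4:**
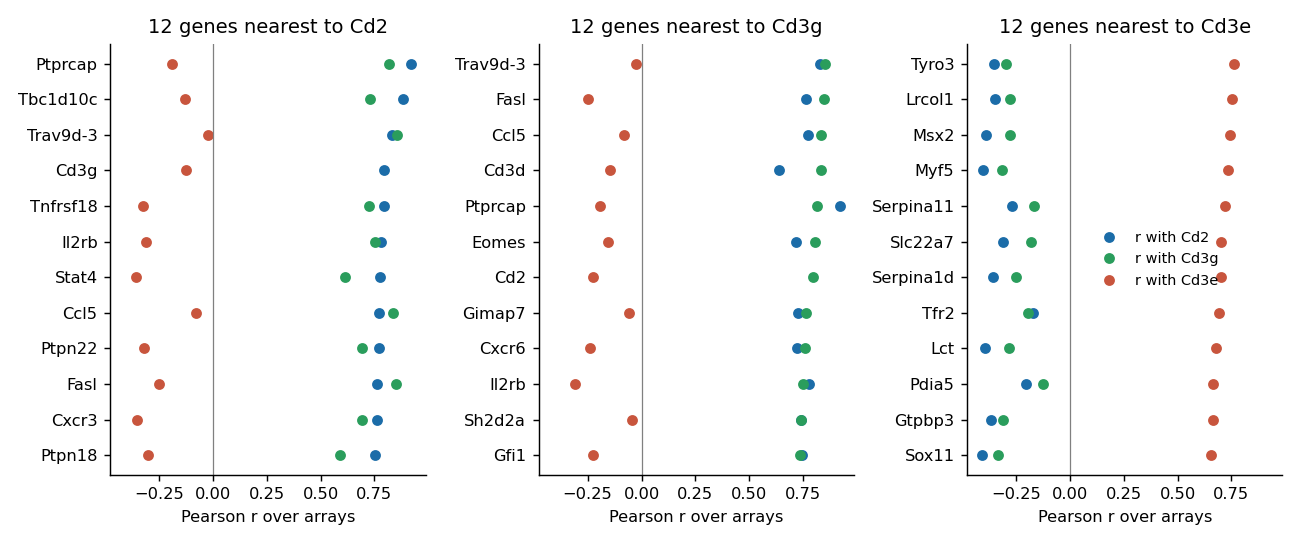
Pearson r over arrays (horizontal axis) of the 12 genes nearest to Cd2, to Cd3g and to Cd3e (panels), each shown with its r with all 3 members by colour. In the first 2 panels r with Cd2 and Cd3g is high and r with Cd3e is below 0 (-0.192 for Ptprcap), and in the last panel the order is turned (Tyro3 at 0.761 with Cd3e and -0.354 with Cd2).

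Other genes of the T cell were read from 5 lists (receptor complex, costimulation and surface, receptor signalling, transcription factors, homing and cytokine receptors), which were chosen with earlier results of these data known. Of 123 listed genes 89 were measured. In limma fits on each member over all probes (adjusted p under 0.05), 59 of the 89 rose and 5 fell with Cd2, with a median r of 0.360. With Cd3g 61 rose and 3 fell (median r 0.295), and with Cd3e 12 rose and 44 fell (median r -0.113). Over all genes 19.5% rose and 23.2% fell with Cd2, 19.1% and 22.6% with Cd3g, and 28.6% and 23.5% with Cd3e. Over all probes, named or not, these shares were 16.6% and 24%, 17.1% and 22.9%, and 27% and 21.6%. The median r over all genes was -0.00800, -0.0146 and 0.0169 in the same order. After removal of 5 principal components 58 list genes rose with Cd2 and 59 with Cd3g. With Cd3e the direction turned there, with 32 rising and 4 falling.

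Of the receptor complex itself, 4 of 5 measured genes rose with Cd2 and with Cd3g. Cd3d had an r of 0.641 with Cd2, Cd8a, a coreceptor chain of cytotoxic T cells, 0.568, Cd247, the zeta chain of the receptor, 0.360, and Cd8b1, the other CD8 chain, a lower one that still passed. Tcra did not pass with any of the 3 members (r of -0.0114 with Cd2). Cd8b1 rose with Cd3e too (r = 0.208) and Cd3d fell with it (r = -0.145).

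Receptor segments were examined after Trav9d-3 had been seen. Of the other 7 measured variable segments, none reached an r of 0.15 in size with Cd2, the farthest being Trbv13-1 at -0.143. It still passed as falling with Cd2 (limma adjusted p = 0.0314). With Cd3g, Trbv13-2 fell (r = -0.185, limma adjusted p = 0.005). Trbv13-1 rose with Cd3e, with an r of 0.424, as did Trbv13-2 (0.215), while Trgv5 fell with it (-0.153). Trav9d-3 had 2.72 times the median SD and the alpha segments Trav2 and Trav6d-6 had 0.768 and 0.656 times.

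In receptor signalling 17 of 26 genes rose with Cd2 and 18 with Cd3g, and 16 fell with Cd3e. Ptprc (CD45), the phosphatase that starts receptor signalling, had r of 0.603, 0.570 and -0.529 with Cd2, Cd3g and Cd3e. Zap70, the kinase that binds the phosphorylated CD3 chains, passed with neither Cd2 (r = 0.00634) nor Cd3g (0.119) and rose with Cd3e (0.199). Lat, its adaptor substrate, rose with Cd2 (0.241) and with Cd3e (0.165). Cd2ap, an adaptor that binds the tail of CD2, fell with Cd2 (-0.149).

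Of 21 surface and costimulation genes 13 rose and 2 fell with Cd2, 14 rose and 2 fell with Cd3g, and 3 rose and 9 fell with Cd3e. Cd48, the mouse ligand of CD2, had r of 0.430 with Cd2 and 0.475 with Cd3g, and fell with Cd3e (-0.507). Cd96 (0.690) and Cd7 (0.603) were among the highest with Cd2. Cd28 rose with Cd2 (0.268). Cd5, a damper of receptor signals, passed with none of them (0.0863 with Cd2). Cd6, its relative, and Ly9, a receptor of the SLAM family, fell with Cd2 (-0.177 and -0.389) and rose with Cd3e (0.347 and 0.455). For Ly9 the slopes differed across the Eif2s3y split: r with Cd2 was -0.348 on the Eif2s3y-high and 0.0431 on the Eif2s3y-low arrays (limma adjusted p = 0.0220), and r with Cd3e 0.547 and -0.0306 (limma adjusted p = 8.27e-09). For Cd6 r with Cd3e was 0.455 and 0.148 (limma adjusted p = 0.0175). Thy1 rose with Cd3g (0.161) but did not pass with Cd2 (0.109).

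Of 14 transcription factors 11 rose with Cd2 and with Cd3g, while 1 rose and 7 fell with Cd3e. Of 23 homing and cytokine receptors 14 rose and 1 fell with Cd2 and likewise with Cd3g, while 3 rose and 11 fell with Cd3e. Tbx21, the master regulator of type 1 responses, had an r of 0.669 with Cd2, Itgal, a chain of the integrin LFA-1, 0.737, and Il7r, the receptor for interleukin 7, 0.400. These genes, among those highest with Cd2 apart from Il7r, fell with Cd3e (-0.329, -0.365 and -0.431). Foxp3, the factor of regulatory T cells, did not pass with Cd2 (-0.0986) and rose with Cd3e (0.288). Il12rb1 fell with Cd2 (-0.187) and rose with Cd3e (0.484).

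The list genes were also counted by their spread between livers, a split made after the data were seen and with no test of the difference. Of 23 list genes with an SD below the median of all genes, 7 rose and 4 fell with Cd3e. Of 66 with a larger SD, 5 rose and 40 fell. Over all genes, below the median SD 37.9% rose and 15.0% fell with Cd3e, and above it 19.3% and 32.1%. With Cd2, 49 of the 66 list genes with the larger SD rose and 10 of the 23 others, while over all genes 26.2% and 12.7% rose.

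Genes of other cell types and of the interferon response were counted in the same way. Over all genes 19.5% rose with Cd2, 19.1% with Cd3g and 28.6% with Cd3e, and 23.5% fell with Cd3e. Of 22 cytotoxic T and NK cell genes 16 rose with Cd2, 15 with Cd3g and 1 with Cd3e. All 9 MHC class II genes rose with Cd2 and with Cd3g, and 7 fell with Cd3e. Of 25 macrophage and Kupffer cell genes 24 rose with Cd2, 22 with Cd3g and 0 with Cd3e, with which 21 fell. Of 15 B cell genes 10 rose with Cd2 and 7 with Cd3g. Of 18 genes of the interferon gamma response 15 rose with Cd2 and 16 with Cd3g. With Cd3e 5 of them rose and 4 fell, a share near that of all probes (27% and 21.6%). The part of other leukocytes in the relations of Cd2 and Cd3g was not tested.

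Genes of resident liver cells moved with Cd3e as well. Of 8 hepatocyte genes 5 rose with Cd3e and 0 with Cd2, among them Hnf4a, a hepatocyte transcription factor (r of 0.410 with Cd3e and -0.366 with Cd2), and Ahsg, fetuin-A (0.390 and 0.0517). Of the 8 hepatocyte genes 3 fell with Cd2. Of 11 stellate cell and matrix genes 8 fell with Cd3e, of 12 endothelial genes also 8, and of 10 proliferation genes 9. With Cd2, 7 stellate cell, 5 endothelial and 7 proliferation genes rose, and 1 of each list fell. Over all genes 28.6% rose and 23.5% fell with Cd3e, and 19.5% rose and 23.2% fell with Cd2. Of 4 pancreas genes, including Prss1 with 8.53 times the median SD, none passed with Cd2 or Cd3g, and 1 rose with Cd3e.

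**Figure D5:**
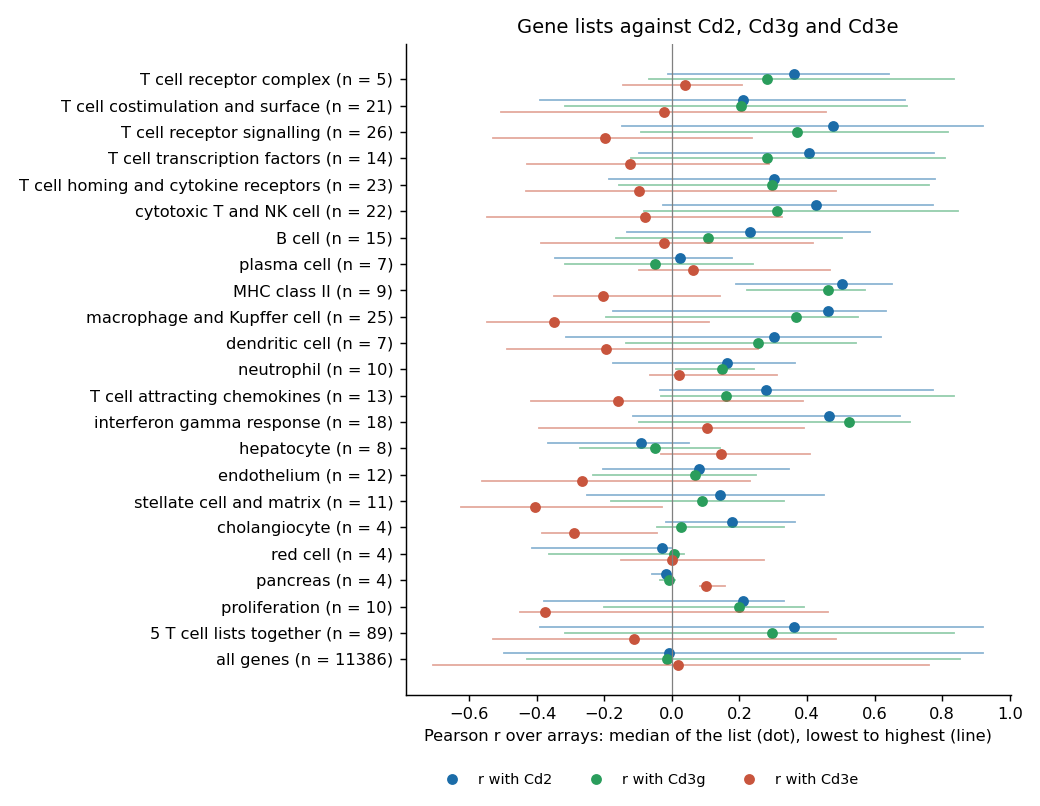
Median Pearson r over arrays of each gene list with Cd2, Cd3g and Cd3e (dots) and its lowest to highest gene (lines), with all genes at the bottom. T cell, MHC class II and macrophage lists lie above 0 for Cd2 and Cd3g (macrophage medians 0.461 and 0.367) and mostly at or below 0 for Cd3e (-0.348), and the interferon gamma list has a positive median with all 3 (0.104 with Cd3e).

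Some of these genes had a higher slope on Cd2 than on Cd3g, and others a lower one. This was tested with both in 1 limma fit over all probes, as the difference of their standardised slopes, and was added after the data were seen. A gene is called nearer to the member with the higher signed slope, which is no measure of closeness for genes that fall. Sdr9c7, at an r of -0.497 with Cd2, was thus called nearer to Cd3g. By this rule 16.9% of probes were called nearer to Cd2 than to Cd3g and 19.1% nearer to Cd3g. Of 15 B cell genes 10 were nearer to Cd2 and 0 to Cd3g: Pou2af1, a B cell coactivator, had r of 0.567 with Cd2 and 0.265 with Cd3g (limma adjusted p = 3.19e-18 for the difference), and Cd79b, a chain of the B cell receptor, 0.587 and 0.296. Of 25 macrophage genes 11 were nearer to Cd2 and 0 to Cd3g, Csf1r among them (0.618 and 0.432). Nearer to Cd3g were Cd3d, Cd8a (0.568 with Cd2 and 0.679 with Cd3g), Eomes and Fasl, and 8 of 18 interferon gamma genes, against 1 nearer to Cd2. Of the 22 cytotoxic genes 7 were nearer to Cd2 and 5 to Cd3g.

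Few slopes on Cd2 and Cd3g passed as different between the Eif2s3y-high and Eif2s3y-low arrays, and more on Cd3e. Each member was scaled to its own SD on either side, so a slope is per SD of that side. These SDs, Eif2s3y-high then Eif2s3y-low, were 0.147 and 0.110 for Cd2, 0.171 and 0.147 for Cd3g, and 0.0485 and 0.0385 for Cd3e. Slopes can therefore differ where the change per unit of the member does not. The slope differed for 0.28% of probes with Cd2 (64 probes), for 0% with Cd3g (0 probes in limma, 2025 at an unadjusted p under 0.05) and for 8.96% with Cd3e (2048 probes). At an unadjusted limma p under 0.05 the shares were 10.2%, 8.86% and 22.1% in that order. Ptprcap had an r of 0.908 with Cd2 on the Eif2s3y-high and 0.907 on the Eif2s3y-low arrays. Its slope per SD of Cd2 was larger on the former (limma adjusted p = 0.000872), where the SD of Cd2 was larger too. Ctsw, a protease of cytotoxic cells chosen after its values were seen, had r of 0.142 and 0.577 with Cd2 (limma adjusted p = 0.0220). With Cd3e, Alas2, the erythroid enzyme of haem synthesis, had r of 0.452 and -0.419 (limma adjusted p = 5.59e-12). Tox, a factor of T cell development and exhaustion chosen after its values were seen, had -0.523 and 0.00108 with Cd3e (limma adjusted p = 8.73e-08), and Lcn2, a secreted acute phase protein also chosen so, -0.264 and 0.381 (limma adjusted p = 9.8e-07).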

How the data were processed

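Liver RNA of 311 F2 mice was measured on 2-colour arrays against a common pool, with the dyes per the labels. The authors deposited ratios, read here as log10, which end at -2 and 2. How they were normalized and scanned is not given in the sources used here. Dyes are in the labels but not which channel is the numerator, so the log base and the sign (animal over pool, for all arrays alike) come from the data, where the slope of gene means on variances was -0.846, against -1.15 for log10 of sample over pool, -0.347 for log2 and 1.15 for the reverse. That slope lay between those for log10 and log2, and every fold value rests on the log10 reading. The F2 number of 1 sample differs between its title and its source name, and that of the title was taken. Values were used without further normalization. In all 0.745% were missing and 1990 lay at a limit, none of them for the 3 genes.

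Of 23388 probes 13645 named 1 gene in the platform table, 48 several and 9695 none. Symbols were updated through RefSeq (GRCm38.p6). The 22863 probes present on at least 95% of arrays were kept, and a gene was read from its probe with fewest missing values.

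The members, the 21 gene lists and the rule for named genes were chosen with earlier results of these data known. Named are the 12 highest and 6 lowest genes by r with each member, the 6 highest and 3 lowest on either side of the Eif2s3y split, up to 3 highest and the lowest with Cd2 in each list, neighbours and a fixed set of T cell genes. Genes outside this rule (Ctsw, Tox, Lcn2 and the receptor segments Trbv13-1, Trav2 and Trav6d-6) were chosen after their values were seen.

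Pairs had two-sided permutation tests (100000 resamples). Slopes were fitted with limma 3.58.1 in R 4.3.3, with Benjamini-Hochberg adjustment over all probes at 0.05. For differences of slope across the Eif2s3y split, each member was scaled to its SD within each side. Correlations were computed with numpy 2.4.6 and scipy 1.17.1 under Python 3.11.15, tables with pandas 2.3.3 and plots with matplotlib 3.10.9. On simulated data of 22862 probes the slope fit on Cd2 called 98% of probes planted with an r of 0.3 or -0.3, 100% of those with 0.5 or -0.5, and 9 of 22662 others. The fit of the difference between Cd2 and Cd3g was run on 22863 simulated probes, with 100 planted differences of each size. It called 97% of those of 1 SD but only 16% of 0.5 SD, and 12 of 22663 others. In the data many more probes passed (16.9% and 19.1%), which eases the adjusted threshold. These recoveries therefore do not give the share missed in the data. Alternatives were rank correlation, centring or scaling of arrays, animals on either side of the median F2 number, leaving out the 10 arrays of largest SD, the Eif2s3y split as covariate, either side of it, 5 principal components removed, other limits on missing values, and values at the limits set to missing.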

Additional observations from a re-analysis of the deposited data

How the results depend on the processing

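Cd2 with Cd3g kept its direction and its side of the threshold under every alternative run, with r from 0.713 to 0.818. Cd3e with Cd2 went from -0.225 to 0.00812 on the Eif2s3y-low arrays, near 0 and not past the threshold. It turned to 0.195 after removal of 5 principal components. Cd3e with Cd3g went from -0.127 to 0.0525, also not past the threshold, and turned to 0.257 in the same settings. It lost the threshold with F2 numbers up to the median (-0.0760), without the 10 arrays of largest SD (-0.114), with the Eif2s3y split as covariate (-0.0356) and on the Eif2s3y-high arrays (-0.0959). The limma slope of Cd3g on Cd3e did not pass over all probes either. The cause was not tested.

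Shares of all probes moved with fewer arrays or fewer components. With F2 numbers above the median 10.7% rose and 14.8% fell with Cd2, and with F2 numbers up to it 9.35% rose and 11.9% fell with Cd3g; these fits use fewer arrays. After removal of 5 components 5.70% rose and 5.61% fell with Cd2, 9.95% and 8.86% with Cd3g, and 11.2% and 9.61% with Cd3e. Of the 89 T cell list genes, those falling with Cd2 numbered 3 with centred arrays, 3 with F2 numbers up to the median, 1 above it and 1 after removal of components. Those falling with Cd3g numbered 5 with the Eif2s3y split as covariate. With Cd3e 32 rose and 4 fell after removal of components.

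No paired analysis was possible because the animals form 1 group. Arrays have no read depth, the ratios do not show how strong the signal of a probe was, and each gene rests on 1 probe.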
